A study of Mus musculus with 18 samples.

Results

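Immediate early genes are genes that cells transcribe within minutes of a signal, from factors already present and without new protein synthesis. Growth factor signals that pass through the kinase ERK, stress kinases and mechanical strain switch them on, and their short-lived RNAs soon decay. In the gastrulating mouse embryo, FGF signalling through ERK is active in the epiblast and primitive streak, and the same genes are also known to respond when tissue is taken apart into single cells. The 10 genes described here, of 22997 nuclear genes measured, were Fos, Fosb, Jun, Junb, Jund, Egr1, Ier2, Dusp1, Zfp36 and Cyr61, taken by name.

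The study addressed how mesoderm and endoderm separate during gastrulation, with single-cell RNA sequencing of wild-type C57BL/6 mice, at E6.75 and E7.5 (embryonic days). No cell carried a transgene or received a treatment. The 6 E6.75 libraries held hand-picked cells processed with CEL-Seq2, from embryos that had lost their extraembryonic part and were dissociated 1 by 1. The 12 E7.5 libraries held cells sorted by flow cytometry and processed with mCEL-Seq2, a miniaturised automated form, from pooled embryos of 1 or 2 litters cut below the chorion. Both stages were dissociated enzymatically in the same way, but E6.75 cells were then picked from cold buffer and E7.5 cells waited on ice for the sorter. Stage, way of collecting the cells and protocol version therefore cannot be told apart. Which embryo or litter a library came from was not stated for each library, so p-values measure the spread between libraries, which may be partly technical.

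A cell was kept with at least 2000 nuclear transcripts, which left 543 of 576 used barcodes at E6.75 (85 to 96 per library) and 429 of 1152 at E7.5 (15 to 71 per library in 11 libraries, and 0 in replicate 5). The libraries' kept cells had median depths of 22331 to 54686 transcripts in the hand-picked and 18982 to 57140 in the sorted libraries. Mitochondrial shares were 13.7% to 18.6% and 8.99% to 14.3%. E6.75 libraries 1_10 and 1_11 held 2.50% and 2.59% ERCC spike-in transcripts, against 0.000136% to 0.000291% in 2_9, 2_12, 2_13 and 2_14. Libraries 1_10 and 1_11 also had the highest mitochondrial shares, 18.6% and 16.9%. The labels do not say what sets them apart. All libraries were counted against the same set of barcode columns, so a column number shared by 2 libraries does not mark a shared cell. Summed epiblast and ectoderm markers ranged from 1919 to 2629 transcripts per 1000000 nuclear transcripts (CPM) in E6.75 libraries, and from 385 to 1166 in the others. Summed streak and mesoderm markers ranged from 200.2 to 1070 CPM and from 423 to 2022 CPM. Cells rich in visceral endoderm or extraembryonic ectoderm markers numbered 38 at E6.75 and 5 at E7.5.

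The bases just before the start of 3 of these genes are shown as examples that carry short matches to a known signal-responsive element. All 10 genes were lower at E7.5, among them Jun, Jund and Zfp36, whose windows hold no TGACG. RefSeq windows (GRCm38.p6) of the 250 bases before the start were searched for 8 of the 10 members, all but Egr1 and Ier2. RefSeq starts are not the GENCODE starts for all members. For Jund the RefSeq start is 70697739 and the GENCODE span begins at 70698949. For Zfp36, on the minus strand, they are 28379228 and 28380253. The bases before these GENCODE starts were not searched. Capitals mark TGACG, the core of the cyclic AMP response element, on either strand, and TATAAA, the TATA box. The windows lie at chr12:85473640-85473889 on the plus strand for Fos, chr8:84978749-84978998 on the minus strand for Junb and chr3:145649986-145650235 on the minus strand for Cyr61, which RefSeq calls Ccn1.
Fos: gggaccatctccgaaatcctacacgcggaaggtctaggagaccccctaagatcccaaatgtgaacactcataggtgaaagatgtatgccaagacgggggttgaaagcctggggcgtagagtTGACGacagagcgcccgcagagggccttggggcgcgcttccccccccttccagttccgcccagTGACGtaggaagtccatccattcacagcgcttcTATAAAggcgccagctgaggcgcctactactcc
Junb: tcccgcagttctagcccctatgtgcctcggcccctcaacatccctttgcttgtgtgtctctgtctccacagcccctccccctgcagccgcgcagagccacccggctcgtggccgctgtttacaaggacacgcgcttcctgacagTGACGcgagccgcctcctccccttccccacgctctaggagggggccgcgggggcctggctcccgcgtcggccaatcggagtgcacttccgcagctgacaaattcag
Cyr61: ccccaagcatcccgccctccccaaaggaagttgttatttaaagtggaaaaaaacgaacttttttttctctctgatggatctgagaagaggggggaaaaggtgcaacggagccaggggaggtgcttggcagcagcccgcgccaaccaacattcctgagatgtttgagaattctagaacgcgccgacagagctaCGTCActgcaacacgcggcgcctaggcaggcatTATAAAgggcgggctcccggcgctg
TGACG was found in 5 of the 8 windows (Fos, Fosb, Junb, Dusp1 and Cyr61), against 17.8% of all 32851 windows of this length. The full palindrome TGACGTCA, which contains TGACG, was found in 1 of 8 (Dusp1), against 1.55%. The CArG box, the site that serum response factor is known to bind, was found in 1 of 8 (Zfp36), against 1.47%. TATAAA was found in 2 of 8, Fos and Cyr61, against 12.4%. TGANTCA, the site of AP-1 dimers, was found in 0 of 8, against 6.75%. These matches describe letters only, and no binding was measured here.

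All 10 genes were lower in the E7.5 libraries than in the E6.75 libraries. The median log2 fold change of the 10 was −2.10, beside 0.016 over all genes tested. All 10 passed the test (limma-voom on counts summed per library, adjusted p under 0.05), where 42.6% of 9998 genes passed in either direction and 21% passed as lower. The lowest E6.75 library lay above the highest E7.5 library for 9 of the 10, which held for 4.23% of all genes tested. The filter on low counts, which set the genes tested, could be passed through the E6.75 libraries alone. In summed libraries, fewer cells expressing a gene and less RNA per cell cannot be told apart.

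**Figure D1:**
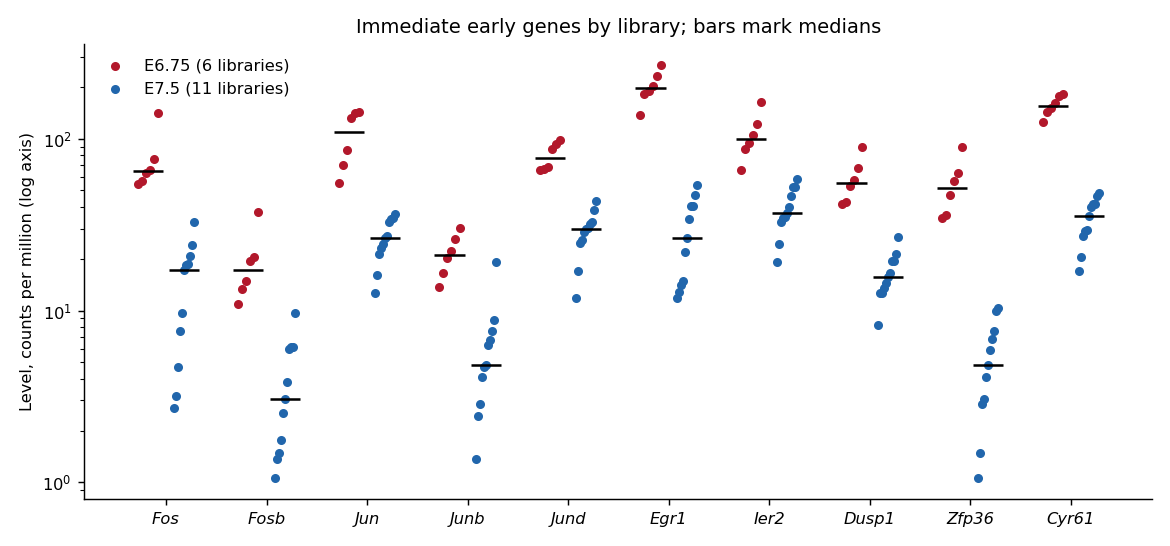
Level of each immediate early gene in CPM (log axis) in the 6 E6.75 libraries (red) and the 11 E7.5 libraries with kept cells (blue); each point is a library and black bars are medians. The point clouds of the stages are separate for every gene but Junb, where 1 E7.5 library lies above the lowest E6.75 library.

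The AP-1 transcription factors are dimers of a FOS and a JUN protein. Fos, at chromosome 12, 85473890 to 85477273 in the GENCODE annotation of GRCm38, had 54.8, 64.6 and 141 CPM in the lowest, median and highest E6.75 library. At E7.5 it had 2.72, 17.2 and 32.7 CPM, a log2 fold change of −2.53 (SE 0.343, adjusted p = 6.84e-06). The E6.75 maximum belonged to replicate 1_11, which stood apart from the other 5. Fosb, a close relative of Fos, had 10.9, 17.1 and 37.6 CPM at E6.75 and 1.06, 3.04 and 9.65 CPM at E7.5 (log2 fold change −2.35, SE 0.431, adjusted p = 0.000184). Its highest E6.75 library was again 1_11, and the stages did not overlap.

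The JUN genes encode the partners of the FOS proteins. Jun had 55.1, 109 and 143 CPM at E6.75 and 12.7, 26.6 and 36.5 CPM at E7.5 (log2 fold change −1.90, SE 0.252, adjusted p = 5.63e-06). The E6.75 libraries spread widely for Jun, with 132, 141 and 143 CPM in 1_11, 2_9 and 2_12 and the lowest value in 2_14. Junb, which is known to oppose Jun at many targets, had 13.8, 21.2 and 30.3 CPM and then 1.36, 4.82 and 19.3 CPM (−1.97, SE 0.316, adjusted p = 4.50e-05). E7.5 replicate 10 was above the lowest E6.75 library for Junb. Jund, the JUN gene that cells are known to express most steadily, had 65.8, 77.8 and 98.0 CPM and then 11.9, 29.9 and 43.4 CPM (−1.54, SE 0.165, adjusted p = 4.75e-07). Its E6.75 libraries lay within 1.49-fold of each other.

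Egr1 encodes a zinc finger transcription factor that ERK signalling induces. It had 138, 197 and 270.1 CPM at E6.75 and 11.8, 26.4 and 54.1 CPM at E7.5, a log2 fold change of −2.90 (SE 0.239, adjusted p = 1.65e-08). All 6 E6.75 libraries lay well above the highest E7.5 library. Ier2, a small nuclear protein gene of the early response, had 66.2, 100.1 and 164 CPM and then 19.0, 37.0 and 58.4 CPM. Its log2 fold change of −1.42 (SE 0.193, adjusted p = 6.84e-06) was the smallest of the 10, and its closest libraries, E6.75 replicate 1_10 and E7.5 replicate 12, nearly met.

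The last 3 genes act outside transcription. Dusp1 encodes a phosphatase that removes the activating phosphates of MAP kinases. It had 41.5, 55.2 and 89.0 CPM and then 8.18, 15.7 and 26.7 CPM (−1.77, SE 0.211, adjusted p = 1.74e-06). Zfp36 encodes a protein that binds AU-rich RNAs and speeds their decay. It had 34.7, 52.0 and 89.9 CPM and then 1.06, 4.82 and 10.4 CPM, and its log2 fold change of −3.46 (SE 0.417, adjusted p = 1.95e-06) was the largest of the 10. Cyr61 encodes a secreted matrix protein and is a known target of YAP. It had 125, 156 and 182 CPM and then 16.9, 35.4 and 48.7 CPM (−2.22, SE 0.149, adjusted p = 1.54e-09), with E6.75 libraries within 1.46-fold of each other.

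Low counts bear on the smallest E7.5 values. Of 110 pairs of a gene and an E7.5 library, 15 rested on 3 transcripts or fewer, all of Fos, Fosb, Junb or Zfp36, and in the shallowest E7.5 library 3 transcripts corresponded to 6.14 CPM. The GENCODE spans of Jun, Jund and Zfp36 are overlapped by antisense genes, that of Junb by Prdx2 and that of Dusp1 by Ergic1. Whether strand was used in counting is not given in the sources used here, so reads of these pairs may not have been told apart. The log2 fold changes of the 10 genes kept their direction and stayed past the threshold in every alternative that tested them.

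The difference was also present within cells that share a lineage marker. Among cells with Sox2, a transcription factor of pluripotent and neural cells, and without T, a primitive streak factor, all 10 genes were lower at E7.5 (269 cells of 6 libraries and 71 cells of 5 libraries), where 13.6% of 9641 genes passed in either direction and 6.83% as lower. Egr1 had a log2 fold change of −3.31 (SE 0.421), Jun −2.90 (SE 0.665) and Jund −1.10 (SE 0.278), with adjusted p of 5.70e-05, 0.00660 and 0.0122. Calls here were less firm. Fosb (adjusted p = 0.0378) did not pass without E6.75 replicate 1_10 or 2_12 or without E7.5 replicate 3, 4, 7 or 12, Junb (0.0100) without E7.5 replicate 4 or 7, and Jund without E7.5 replicate 4. The highest adjusted p among these fits was 0.183, for Fosb.

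Among T-positive cells (156 and 283 cells of 6 and 11 libraries), 9 of the 10 genes passed the filter on low counts. All 9 passed the test as lower at E7.5. Over all 7637 genes tested, 33.1% passed in either direction, 16.4% as higher and 16.7% as lower. The filter could be passed through the 6 E6.75 libraries alone. Zfp36 had at least 32.5 CPM in T-positive cells of these, and at most 12.2 CPM in those of 10 E7.5 libraries. Zfp36 had a log2 fold change of −3.73 (SE 0.538), Egr1 −3.00 (SE 0.272) and Cyr61 −2.53 (SE 0.198). Ier2 (−1.39, SE 0.234) and Jund (−1.34, SE 0.176) had the smallest differences here too. Fosb was not tested in this subset.

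Other genes of the response were less uniform. Of 41 other immediate and delayed early genes, 32 were tested in whole libraries, of which 15 were lower and 7 higher at E7.5 (median log2 fold change −0.28). Over all 9998 genes tested in this comparison, 21% passed as lower and 21.6% as higher, and the difference from these shares was not tested. Egr2, a relative of Egr1, changed by −2.54 (SE 0.473) and Arc by −2.25 (SE 0.365), while Gadd45g, a stress and growth arrest gene, changed by 2.36 (SE 0.548) and Phlda1 by 2.23 (SE 0.292), each with adjusted p of at most 0.00160. Of 13 genes of ERK feedback and the FGF response, 12 were tested, 8 were lower and 1 was higher (median −0.79), read beside the same shares. These included the feedback inhibitors Spry1 (−1.998, SE 0.239), Spry4 (−1.54, SE 0.271) and Il17rd (−1.42, SE 0.262), and the ERK phosphatase gene Dusp6 (−1.36, SE 0.169).

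The genes of proteins that switch immediate early genes on, and heat shock genes, were also listed. Of 22 upstream kinase and transcription factor genes, 19 were tested, 3 were lower and 2 higher (median −0.072). Rps6ka3, a kinase downstream of ERK, changed by 1.07 (SE 0.194). Of 12 heat shock genes, 11 were tested, 4 were lower and 1 was higher (median −0.14). Over all genes in this comparison, 42.6% passed, so the 5 of 19 and 5 of 11 that passed here are read against that share, with no test of the difference. The largest of these differences was that of Hspa8 (1.15, SE 0.313). In Sox2-positive, T-negative cells, 9 of 12 tested ERK feedback genes were lower and 0 higher, with a median of −1.80 and with Spry4 at −3.10 (SE 0.567). Over all genes tested in these cells, 6.83% passed as lower and 6.79% as higher. The cells of the stages were handled differently, as described above, and the part of handling in these differences cannot be told apart from that of stage.

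Single cells showed the same separation of the stages with wide spread inside each library. The 10 genes together took 713, 853 and 1127 CPM in the lowest, median and highest E6.75 library and 145, 195 and 252 CPM at E7.5. The median cell of a library held 5.55 to 9.01 transcripts of these genes per 10000 in E6.75 libraries, against 0.895 to 1.95 in E7.5 libraries. The libraries' medians did not overlap, but their cells did. At or above 10 per 10000 were 149 of 543 E6.75 cells and 8 of 429 E7.5 cells, and the highest cells reached 44.2 and 15.5.

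**Figure D2:**
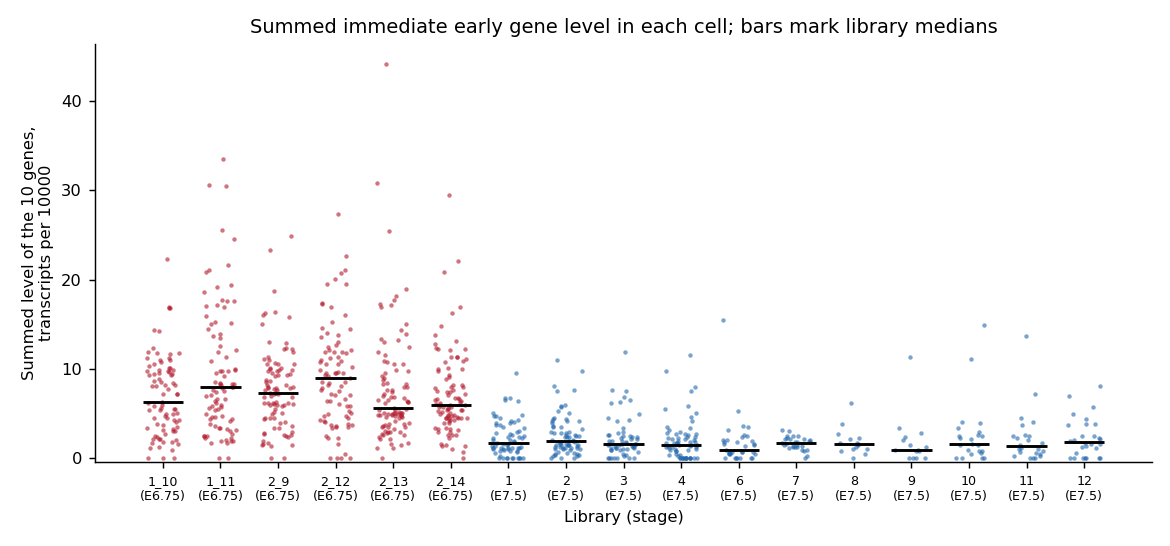
Summed level of the 10 immediate early genes in each kept cell, in transcripts per 10000 nuclear transcripts, by library; red points are E6.75 cells, blue points E7.5 cells and black bars library medians. All E6.75 medians (5.55 to 9.01) lie above all E7.5 medians (0.895 to 1.95), and both stages have cells at 0.

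The number of these genes found in a cell differed as well. The median cell had a transcript of 6 or 7 of the 10 genes in the E6.75 libraries and of 2 to 4 in the E7.5 libraries. All 10 were found in 63 E6.75 cells (11.6%) and in 0 of 429 E7.5 cells, which allows a share of up to 0.699% at the depth of these cells, for counting error only and with the cells of all libraries pooled. None of the 10 was found in 13 E6.75 cells and 61 E7.5 cells. When every cell was thinned to 2000 transcripts, none of the 10 was left in 28.7% ± 4.12 of E6.75 cells (SD, n = 6 libraries), compared with 71.1% ± 8.69 of E7.5 cells (SD, n = 11). The ranges, 22.4% to 34.1% and 58.6% to 86.7%, did not overlap.

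Detection of each gene followed the same order of stages. Unthinned, Egr1 was found in 73.1% to 92.6% of cells per E6.75 library, against 16.9% to 46.7% per E7.5 library. Thinned to 2000 transcripts, its share of cells was 26.9% ± 6.80 (SD, n = 6) against 4.34% ± 5.33 (SD, n = 11). Zfp36 was found in 48.4% to 69.5% and 2.86% to 21.7% of cells unthinned, and in 8.72% ± 3.63 and 0.931% ± 1.72 thinned. Ier2 was the most widely found member at E7.5, in 41.7% to 80.0% of cells unthinned, against 74.1% to 88.5% at E6.75. These ranges overlapped, and thinned shares were 16.3% ± 6.37 and 6.79% ± 4.37. Thinned shares at E7.5 lie near the level of a single transcript and show no order among genes.

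Transcripts of these genes were more unevenly spread over cells than those of most genes. The highest 10% of cells of a library held 21.1% to 29.9% of the summed level at the earlier stage, and 18.1% to 52.6% at the later one. This share includes counting noise and was not computed for other genes. At E7.5 the highest 10% were as few as 2 cells of a library. Uneven spread was also measured per gene as the squared coefficient of variation beyond counting noise, in cells of at least 10000 transcripts and in libraries with a mean of at least 1 transcript per cell. At E6.75, it was 1.56 for Fos (range over 6 libraries 0.756 to 7.61), 1.04 for Jun (0.816 to 1.81) and 0.985 for Cyr61 (0.820 to 1.23). The median over 6372 genes was 0.110, and 97.8%, 96.5% and 96.4% of genes lay below these 3 members.

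The other members ranged down to the middle of the genes. Junb (0.772), Zfp36 (0.680), Dusp1 (0.567) and Egr1 (0.496) lay above 91.3% of genes or more, Ier2 (0.232) above 75.9% and Jund (0.171) above 66.1%. Junb could be measured in 4 libraries, the others in 6, and Fosb in too few. The most transcripts of any member in 1 cell were 84, of Fos, in replicate 2_13. At E7.5, only 5 members were abundant enough, with values of 2.09 for Egr1, 1.45 for Jun, 1.42 for Cyr61, 0.430 for Ier2 and 0.363 for Jund over 5 to 9 libraries (gene median 0.101). Jund and Ier2 were again the most even, and the ranges over libraries were wide (−0.549 to 0.908 for Jund).

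Little of the variance of single-cell log levels lay between libraries of a stage, for the members as for the median gene. These levels include counting noise, so a small share does not show that the libraries were alike. At E6.75, in 451 cells of at least 10000 transcripts, the library accounted for 0.816% of the variance of the log level of Cyr61, 4.41% for Egr1, 4.45% for Fos, 8.84% for Zfp36 and 9.47% for Ier2, beside a median of 2.61% over 8886 genes. The share of Jun was 7.08%. Cyr61 had the lowest share of the 10 members at this stage, above that of 9.27% of genes. Ier2 had the highest, above that of 92.7% of genes. At E7.5, the share was 1.56% for Jun and 5.33% for Egr1, beside a median of 4.13%. Cells of 1 library can share an embryo, which the labels do not resolve.

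Within libraries, cells high in one member tended to be high in others at E6.75. The mean within-library rank correlation of gene levels across cells was above 0 for 45 of 45 pairs at E6.75 (median 0.30, 6 libraries, 543 cells), with Egr1 and Cyr61 at 0.40 and Fosb and Jund lowest at 0.070. Cells of a library share its depth profile, and the summed level itself had a median rank correlation of 0.25 with depth (0.069 to 0.308 over libraries) and of 0.012 with the mitochondrial share. With every cell thinned to 20000 transcripts, the median over pairs was 0.20 (379 cells, 44 of 45 above 0), and with 5000 it was 0.083 (494 cells, 39 of 45). Thinning also left out the shallower cells, and the part of depth, counting noise or the choice of cells in these values was not tested. For comparison, unthinned pairs among 11 heat shock genes had a median of 0.066 and pairs among 18 upstream genes 0.11.

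Jund had low correlations with Fos and Egr1 at E6.75. Its correlation with Fos was 0.12 and with Egr1 0.13, against 0.38 for Fos with Zfp36 and 0.38 for Egr1 with Ier2. At E7.5, the median over 45 pairs was 0.12 (9 libraries with at least 20 cells, 399 cells), and it was 0.052 with cells thinned to 20000 transcripts (226 cells of 6 libraries, 33 of 45 above 0) and 0.017 with 5000 (296 cells, 24 of the 44 pairs that could be computed above 0). The E7.5 pair with the highest value was Fos with Egr1 at 0.37, but single libraries ran from −0.085 to 0.670. Correlations this weak in sparse counts show no order among the other pairs.

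**Figure D3:**
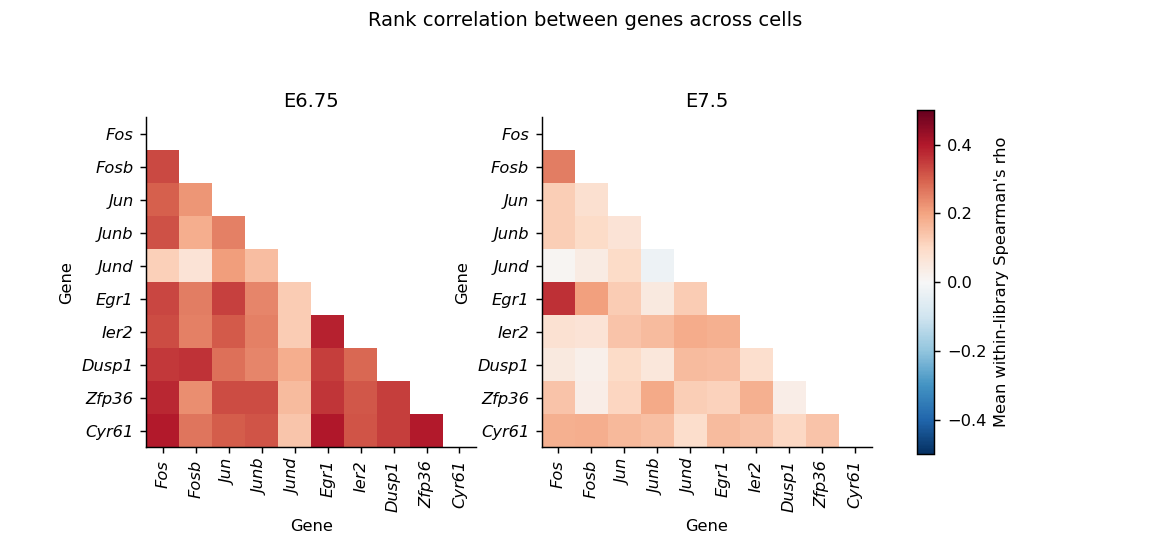
Mean within-library Spearman rank correlation of the levels of each pair of genes across cells at E6.75 (left, 6 libraries) and E7.5 (right, 9 libraries); colour gives rho, from −0.5 (blue) to 0.5 (red). At E6.75 all 45 pairs are above 0 and the Jund row and column are palest; at E7.5 the median is 0.12 and Fos with Egr1 is darkest at 0.37.

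The genes whose levels followed the summed level of the 10 most closely at E6.75 were Btg2 (mean within-library rho 0.39), Egr4 (0.38), Nr4a1 (0.36), Ctgf (0.35), Egr2 (0.33), Klf6 (0.31), Pnrc1 (0.30) and Irs2 (0.29), beside a median of 0.082 over 8395 genes. Btg2, Nr4a1, Ctgf, Egr2 and Klf6 were on the list of other immediate and delayed early genes. That list held 41 genes, beside 8395 ranked, and was chosen with earlier results of these data known. At E7.5 the 8 nearest genes were Sparc (0.25), Vamp8, Tagln2, Clcn4, Hspa5, Hdgf, Lrpap1 and Alg9 (0.21), beside a median of 0.034 over 8036 genes. Single libraries fell below 0 for all of these but Hdgf and Alg9. On the list of 41 other early genes were 0 of the 8. With 8036 genes ranked, no result is read from this 0.

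The members were then compared between cells with and without a transcript of a lineage gene, inside each library. T marks the primitive streak and axial mesoderm, Mesp1 the early mesoderm, Foxa2 the endoderm and axial mesoderm, and Sox2 the epiblast and neural ectoderm. A cell without a transcript may still express the gene, since positive cells were deeper than negative cells in the median library of each comparison.

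At E6.75, T-positive cells (156 cells, 6 libraries) had higher levels of Egr1, Fos and Dusp1 than T-negative cells (387 cells). These were 3 of 10 members, where 3.81% of 9935 genes passed in either direction and 1.9% as higher. Egr1 had 177, 235 and 395 CPM in the lowest, median and highest library of positive cells and 128, 177 and 235 CPM in negative cells (log2 fold change 0.43, SE 0.0725, adjusted p = 0.00113), and it was higher in 6 of 6 libraries. Fos had 53.6, 75.7 and 196 CPM against 45.1, 54.4 and 128 CPM (0.52, SE 0.129, adjusted p = 0.0250) and was higher in 5 of 6, with 2_9 the other way. Dusp1 had 41.1, 76.3 and 126.1 CPM against 37.0, 48.4 and 80.8 CPM (0.50, SE 0.127, adjusted p = 0.0269) and was also higher in 5 of 6, the exception being 2_14.

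The call of Egr1 held when any library was left out, but not with cells thinned to 2000 transcripts, where 2 members could be tested and 0 passed. None of the 3 calls held without the library block. That of Fos did not without 1_10, 1_11, 2_12, 2_13 or 2_14, nor with limma-trend or without the cells rich in visceral endoderm or extraembryonic ectoderm markers, and that of Dusp1 did not without 1_11, 2_12 or 2_9. The other 7 members did not pass: Junb was higher in 6 of 6 libraries (0.50, SE 0.180, adjusted p = 0.172), and Jund, alone among the 10, had a value below 0 (−0.33, SE 0.114, adjusted p = 0.150). The median depth of a cell was 55719 transcripts in T-positive and 31885 in T-negative cells (medians over libraries). Summed visceral endoderm markers, all 11 of them found in both arms, were 18.3 to 327 CPM in T-positive and 169 to 1290 CPM in T-negative cells, and their part in the result was not tested. Among other early genes, 4 were higher and 1 lower of 31 tested, with Id1 (1.28, SE 0.165), Sgk1 (0.62, SE 0.0923) and Btg2 (0.58, SE 0.138) as higher and Phlda1 (−1.49, SE 0.362) as lower. Of 12 tested ERK feedback genes, 3 were higher, among them Dusp6 (0.45, SE 0.0809), and 2 were lower, Dusp4 (−0.73, SE 0.161) and Spry1 (−0.59, SE 0.139). Over all genes tested in this comparison, 1.9% passed as higher and 1.91% as lower.

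At E7.5, 4 members passed the filter on low counts in T-positive against T-negative cells (271 and 143 cells, 10 libraries), and 0 of them passed the test with limma-voom, where 2.16% of 6310 genes did, 1.16% as higher and 0.998% as lower. Jun had a log2 fold change of 0.71 (SE 0.322, adjusted p = 0.348), Ier2 0.27, Cyr61 −0.32 and Jund −0.32. Of the 4, 1 (Jun) had an unadjusted p under 0.05, as had 796 of the 6310 genes, and 0 passed with limma-trend. The change of the T difference between stages passed for 0 of 10 members, where 0.593% of 8266 genes passed, 0.242% as higher and 0.351% as lower. An unadjusted p under 0.05 was found for 2 of the 10 (Cyr61 and Dusp1) and for 787 of the 8266 genes.

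Jun was the member that passed in Mesp1-positive cells at E7.5. There (133 positive and 268 negative cells, 10 libraries), Jun had 19.8, 34.3 and 100.1 CPM in the lowest, median and highest library of positive cells and 5.32, 20.3 and 35.2 CPM in negative cells. Negative arms went down to 5 cells and to 28415 transcripts. At 28415 transcripts, the highest negative value of 35.2 CPM is the level of 1 transcript. Jun was higher in 8 of 10 libraries (log2 fold change 1.11, SE 0.228, adjusted p = 0.00333), with replicates 7 and 9 the other way, and passed in every alternative that tested it. It was 1 of 5 members tested, where 5.7% of 6156 genes passed in either direction, 2.89% as higher and 2.81% as lower. At E6.75, where 3 libraries had enough Mesp1-positive cells (50 cells, against 234), Jun had 70.9, 58.4 and 60.9 CPM in positive cells of 2_13, 2_14 and 2_9 and 91.6, 54.4 and 153 CPM in their negative cells (−0.46, SE 0.205, adjusted p = 0.471), which did not pass.

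The difference of these differences was 1.66 for Jun (log2, SE 0.307, adjusted p = 0.00506), 1 of 10 members, where 0.567% of 8110 genes passed in either direction, 0.074% as higher and 0.493% as lower. Without cells rich in visceral endoderm or extraembryonic ectoderm markers it was 1.57 (adjusted p = 0.0139), in the only alternative that tested it. Positive cells at E7.5 had a median depth of 40659 transcripts and negative cells 25698. Among the other members at E7.5, Jund had a log2 fold change of −0.64 (SE 0.203, adjusted p = 0.0719) and was lower in 8 of 10 libraries, and Egr1 had 0.55 (SE 0.217, adjusted p = 0.177). Fos, too low to be tested, had a median of 24.8 CPM in positive and 6.36 CPM in negative cells and was higher in 9 of 10 libraries.

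Cyr61 passed in Mesp1-positive cells at E6.75, 1 of 10 members where 1.48% of 10058 genes passed in either direction, 0.925% as higher and 0.557% as lower. It had 117, 110.2 and 120.0 CPM in positive cells of 2_13, 2_14 and 2_9 and 164, 172 and 185 CPM in negative cells (log2 fold change −0.54, SE 0.117, adjusted p = 0.0307). It was lower in positive cells in 3 of 3 libraries. The call was lost without 2_13, without 2_14, with thinned cells, with limma-trend and without the library block, with adjusted p up to 0.960. Summed visceral endoderm markers were 67.0 to 93.6 CPM in Mesp1-positive and 292 to 1045 CPM in Mesp1-negative cells, with all 11 found in both, and Cyr61 still passed without the cells rich in these or in extraembryonic ectoderm markers. Sgk1, a kinase gene of the delayed early response, was higher in Mesp1-positive cells at both stages (0.62, SE 0.102, at E6.75 and 0.96, SE 0.209, at E7.5). It was the 1 other early gene that passed, of 32 tested at E6.75 and 15 at E7.5. Over all genes tested, 0.925% and 2.89% passed as higher. Sgk1 was also higher in T-positive cells at both stages (0.62 and 1.73) and in Foxa2-positive cells at E6.75 (0.58).

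Few members passed in the Foxa2 comparisons. At E6.75 (128 positive and 326 negative cells, 5 libraries), Fosb was the 1 of 10 members that passed, where 5.46% of 9907 genes passed in either direction, 3.68% as higher and 1.78% as lower. Its levels were 30.4, 9.66, 19.3, 19.8 and 26.0 CPM in positive cells of 1_10, 2_12, 2_13, 2_14 and 2_9 and 19.0, 14.4, 10.7, 7.32 and 14.6 CPM in negative cells (log2 fold change 0.77, SE 0.215, adjusted p = 0.0442). It was higher in 4 of 5 libraries, and the call was lost without 1_10, 2_13, 2_14 or 2_9. It was also lost with limma-trend, without the library block, with no filter on low counts, with at least 3 cells per arm and with at least 2 Foxa2 transcripts in positive cells (highest adjusted p 0.414). Summed visceral endoderm markers were 514 to 1702 CPM in Foxa2-positive and 26.8 to 354 CPM in negative cells, with all 11 found in both. Without cells rich in visceral endoderm or extraembryonic ectoderm markers, 2 members passed. In the main fit, Fos had a log2 fold change of 0.49 (SE 0.150, adjusted p = 0.0677) and did not pass.

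At E7.5 (42 and 152 cells, 4 libraries), 0 of 6 members tested passed with limma-voom, where 2.43% of 6919 genes did, 1.94% as higher and 0.491% as lower, and 0 of the 6 with limma-trend. An unadjusted p under 0.05 was found for 2 of the 6 (Cyr61 and Ier2) and for 820 of the 6919 genes. Jun was lower in Foxa2-positive cells in 3 of 4 libraries (−0.64, SE 0.412, adjusted p = 0.618), and Cyr61 had a log2 fold change of 0.69 (SE 0.264, adjusted p = 0.282). Ier2 had 0.59 (SE 0.230, adjusted p = 0.297). In simulated data, 31.6% of log2 changes of 1 were recovered for this comparison, so members that were not called may still differ. The change between stages passed for 0 of 10 members, where 0.74% of 10268 genes passed. An unadjusted p under 0.05 was found for 2 of the 10 (again Cyr61 and Ier2) and for 1082 of the 10268 genes.

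**Figure D4:**
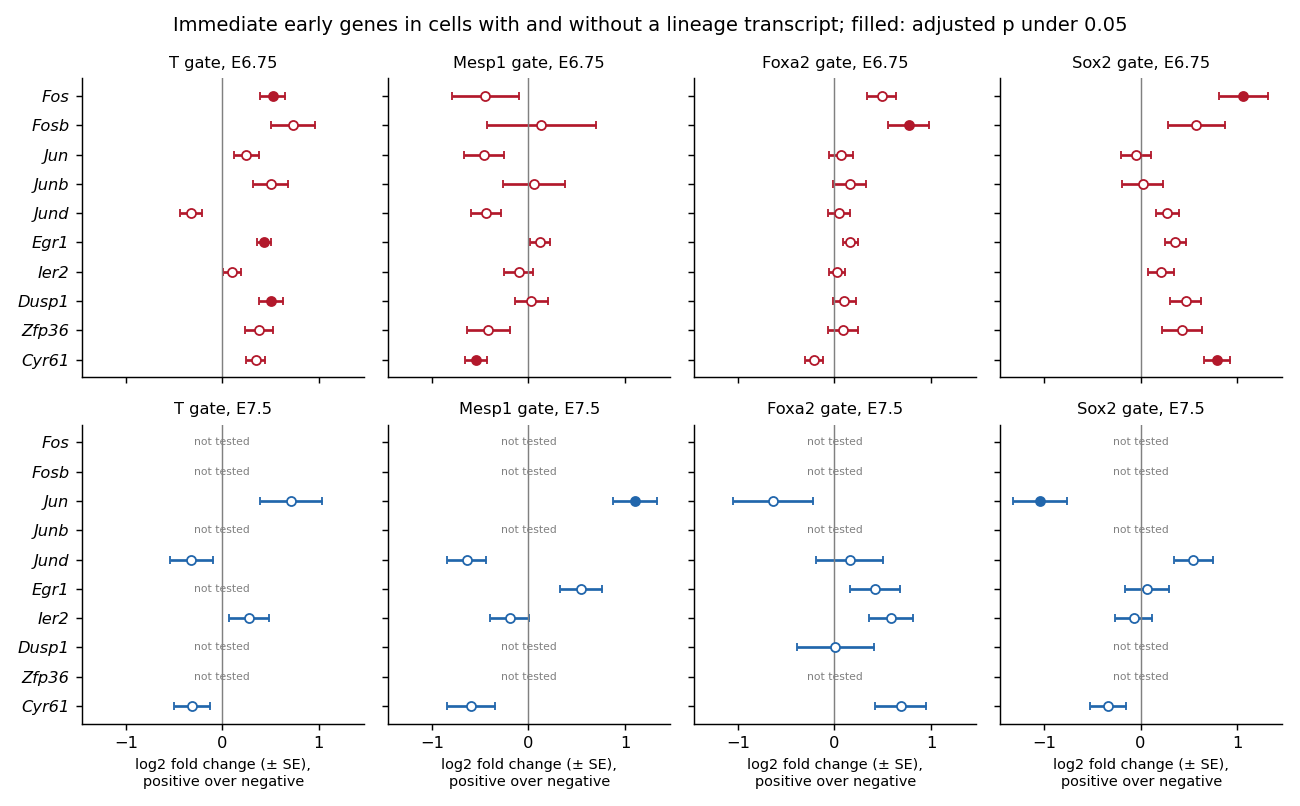
Log2 fold change with its standard error (positive over negative cells, library as a block) of each immediate early gene for 4 lineage genes at E6.75 (upper row) and E7.5 (lower row); filled points had adjusted p under 0.05. At E7.5 the filled points are Jun in the Mesp1 panel (1.11) and in the Sox2 panel (−1.04), and most other members are not tested.

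Sox2-positive cells at E6.75 (394 cells, against 149 negative, 6 libraries) had more Cyr61 and Fos, 2 of 10 members, where 4.5% of 9469 genes passed in either direction, 0.613% as higher and 3.89% as lower. Cyr61 had 128, 170.2 and 191 CPM in positive and 70.1, 91.4 and 126.4 CPM in negative cells (log2 fold change 0.80, SE 0.135, adjusted p = 0.00153), was higher in 6 of 6 libraries and kept its call when any library was left out, but not with cells thinned to 2000 transcripts (adjusted p = 0.305). Fos had 55.5, 68.5 and 154 CPM against 6.30, 44.3 and 67.2 CPM (1.07, SE 0.256, adjusted p = 0.0216). It was higher in 5 of 6 libraries, and its call was lost without 1_11 or 2_14, with limma-trend, without the library block and without the cells rich in visceral endoderm or extraembryonic ectoderm markers.

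The arms of this comparison differed in more than Sox2. The median depth was 10050 transcripts in Sox2-negative and 48137 in Sox2-positive cells (medians over libraries), and summed visceral endoderm markers were 1083 to 1940 CPM in negative and 12.1 to 692 CPM in positive cells, with all 11 found in both. Their part in the result was not tested. Of 31 other early genes tested, Zfp36l2 passed as higher in Sox2-positive cells (0.44, SE 0.106) and Phlda1 as lower (−1.50, SE 0.263). Of 11 heat shock genes tested, 0 passed as higher and 1 as lower, the small heat shock gene Hspb1 (−1.18, SE 0.192). Over all genes tested in this comparison, 0.613% passed as higher and 3.89% as lower.

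At E7.5, Sox2-positive cells (193 cells, against 221, 10 libraries) had less Jun, 1 of 5 members tested, where 9.35% of 6322 genes passed in either direction, 4.81% as higher and 4.54% as lower. Jun had 0, 18.5 and 35.1 CPM in the lowest, median and highest library of positive cells and 6.52, 32.2 and 70.8 CPM in negative cells (log2 fold change −1.04, SE 0.277, adjusted p = 0.0172). It was lower in 8 of 10 libraries, with replicates 4 and 12 the other way. The call was lost with limma-trend and without the library block (highest adjusted p 0.0843). Without replicate 2, without replicate 3 or with at least 2 Sox2 transcripts in positive cells, Jun did not pass the filter on low counts and was not tested. Jund went the other way, higher in 9 of 10 libraries (0.55, SE 0.198, adjusted p = 0.0946), and passed as higher only with at least 2 Sox2 transcripts in positive cells, among the alternatives run. Cyr61 had a log2 fold change of −0.34 (SE 0.185, adjusted p = 0.323).

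For Cyr61 the Sox2 difference itself changed between stages, by −1.13 (log2, SE 0.245, adjusted p = 0.00801). It was 1 of 9 members tested, where 2.79% of 7971 genes passed in either direction, 2.4% as higher and 0.389% as lower. Without cells rich in visceral endoderm or extraembryonic ectoderm markers the change was −1.05 (adjusted p = 0.0190), in the only alternative that tested it. For Jun it was −0.95 (SE 0.336, adjusted p = 0.148) and for Fos −1.38 (SE 0.421, adjusted p = 0.0725). At E7.5, summed streak and mesoderm markers were 244 to 1499 CPM in Sox2-positive and 615 to 2142 CPM in Sox2-negative cells, all 9 found in both. Summed blood and endothelial markers were 13.3 to 331 CPM and 52.1 to 699 CPM, with 7 and 6 of 7 found. Both ranges overlapped, and their part in the difference was not tested.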

How the data were processed

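Single cells were sequenced with CEL-Seq2 (6 E6.75 libraries) or mCEL-Seq2 (12 E7.5 libraries). The submitters' processing notes name bcl2fastq 2.17.1.14 and BWA 0.6.2-r126. The genome build, annotation and use of strand in counting are not given in the sources used here. The authors' deposited values are transcript counts corrected for molecular barcode collisions, since each fits the natural log correction of a whole number of molecules for 4096 molecular barcodes, with no depth scaling. Values were rounded to whole numbers before they were summed and fitted. The fits used limma 3.58.1 (voom, R 4.3.3) with trimmed-mean scaling, in place of the count test first planned. Cells needed at least 2000 nuclear transcripts among the used barcodes, and counts were summed per library, or per library and arm with at least 5 cells in each and the library as a block. A cell was positive with at least 1 transcript. The filter on low counts asked for a minimum level in as many sums as the smallest group held. A gene could therefore pass it through the group where it was high. P-values were Benjamini-Hochberg adjusted over all genes tested, with a threshold of 0.05.

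The 10 members and all gene lists were chosen with earlier results of these data known. Beside the members, up to 4 genes per list and comparison were named, those with the largest fold change past the threshold, and the 8 genes most like the summed level. Tested on simulated data, log2 changes of 1 were recovered in 67.4% of genes for whole libraries between stages (9998 genes simulated), 41.1% for the T comparison at E6.75 (9936) and 31.6% for the Foxa2 comparison at E7.5 (6920). Alternatives were thinning, other filters, scalings and arms, and leaving out each library. Changes of a difference between stages were refitted only with thinned cells or without cells rich in visceral endoderm or extraembryonic ectoderm markers. Library totals were 2921862 to 5493791 transcripts in E6.75 libraries, against 488908 to 2618539 in E7.5 libraries. Floors of 3 counts cover counting error only.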

Additional observations from a re-analysis of the deposited data

Results flagged for a closer look

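Replicate 1_11 stood apart from the other 5 E6.75 libraries for Fos, at 141 CPM, and for Fosb, at 37.6 CPM. The gap to the nearest library, divided by the range, was above the critical value of 0.625 in these 2 of 12 groups of a gene or sum examined. Chance gives such a gap in about 1 in 20 groups. Replicates 1_10 and 1_11 also differed from the other E6.75 libraries in their spike-in and mitochondrial shares. The part of this in the gaps was not tested. The Mesp1 difference of Jun changed between stages by 1.66 on the log2 scale, and the Sox2 difference of Cyr61 by −1.13, each by a test of the change itself. Each change was tested in 1 alternative, and libraries were not left out in turn. The Jun change rested on 3 E6.75 libraries with 5 to 28 Mesp1-positive cells.

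Transcripts of the 10 genes also appeared in barcodes that no comparison used. Barcodes outside the used 96 held 84 at E6.75 (1036 CPM of their nuclear transcripts) and 46 at E7.5 (385 CPM). Used barcodes with too few transcripts to be kept held 39 at E6.75 (926 CPM) and 63 at E7.5 (241 CPM).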

How the results depend on the processing

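No direction of a called fold change of the 10 genes reversed in any alternative. Between stages, 627 of 636 refitted values of 29 fold changes stayed past the threshold, and between arms 84 of 120 values of 9 fold changes did. The members called when each library was left out in turn were 10 to 10 for whole libraries, 7 to 10 in Sox2-positive T-negative cells and 9 to 10 in T-positive cells. At E6.75 they were 1 to 4 for T, 0 to 1 for Mesp1, 0 to 2 for Foxa2 and 1 to 2 for Sox2. At E7.5 they were 0 to 0 for T, 1 to 2 for Mesp1, 0 to 1 for Foxa2 and 0 to 1 for Sox2.

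With cells thinned to 2000 transcripts, 2 members could be tested between whole libraries and 2 passed, while 0 passed for T, Mesp1, Foxa2 and Sox2 at E6.75, where fewer genes were tested. Without the library block, 0 passed for T, Mesp1 and Foxa2 at E6.75 and for Sox2 at E7.5, and 1 for Sox2 at E6.75. With limma-trend, 0 passed for Mesp1 and Foxa2 at E6.75 and for Sox2 at E7.5, and 1 for Sox2 at E6.75. Without cells rich in visceral endoderm or extraembryonic ectoderm markers, 2 passed for Foxa2 and 1 for Sox2 at E6.75. With at least 2 transcripts in the positive arm, 2 passed for Mesp1 and 0 for Foxa2 at E6.75, and 1 for Foxa2 at E7.5. For Sox2 at E7.5 the count stayed at 1 there, but it was Jund, as higher, in place of Jun, which was not tested. With at least 3 cells per arm, 0 passed for Foxa2 at E6.75 and 2 for Mesp1 at E7.5. With no filter on low counts, 4 passed for Sox2 at E6.75 and 3 for Mesp1 at E7.5. Where no fewer genes or samples were tested, the cause was not tested.

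Counts over all genes moved more. Over alternatives other than leaving out a library, they ran from 664 to 12666 against 4264 for whole libraries, 135 to 9232 against 1313 in Sox2-positive T-negative cells and 191 to 3056 against 2530 in T-positive cells. At E6.75 they ran from 17 to 586 against 379 for T, 6 to 1183 against 149 for Mesp1, 49 to 835 against 541 for Foxa2 and 64 to 9090 against 426 for Sox2. At E7.5 they ran from 0 to 1739 against 136, 8 to 686 against 351, 1 to 316 against 168 and 11 to 785 against 591 in the same order. For changes between stages they ran from 3 to 43 against 49, 2 to 52 against 46, 11 to 51 against 76 and 28 to 175 against 222. The limma-trend fits and the thinned correlations were chosen after seeing the data, and the count test first planned was not run. No paired analysis of the stages was made, because their libraries are numbered separately and the labels give no pairing.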
